A study of Danio rerio with 48 samples.

Results

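The integrated stress response was followed through 10 listed genes in single zebrafish embryos of noc2l -/- or noc2l +/+ genotype. The list holds 7 transcription factor genes (atf3, atf4a, atf4b, atf5a, atf5b, cebpb and ddit3) and 3 target genes (asns, chac1 and trib3). They were chosen by name, with earlier results of these data known, and all 10 were among the 31658 entries of the count table. The embryos were noc2l -/- mutants or noc2l +/+ wild types at 24, 36 and 48 hours post fertilisation (hpf). There were 9 mutants and 6 wild types at 24 hpf, 9 mutants and 8 wild types at 36 hpf, and 7 mutants and 9 wild types at 48 hpf. All belonged to 1 family (232) of the RIKEN WT (RW) strain with a single allele, agu79; the sources used here do not describe its lesion. Each library held the RNA of 1 whole embryo, so p-values measure the spread among embryos of that family, and a change of level cannot be assigned to a tissue.

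When cells are short of amino acids, infected, low in haem or burdened with unfolded protein, sensor kinases phosphorylate the initiation factor eIF2. Bulk protein synthesis then falls, while a few messages with upstream open reading frames, ATF4 and ATF5 among them, are translated more. ATF4 pairs with C/EBP factors and switches on CHOP (ddit3), ATF3 and genes of amino acid supply, redox balance and feedback. These steps are known mainly from mammalian cells. Because ATF4 and ATF5 are governed largely at translation, a transcript level is not a measure of their protein.

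Library totals ran from 797752 to 11016313 counts, and 3 libraries were shallow, with a total under the median divided by 3: mutant 8 of the 24 hpf group, wild type 4 of the same age, and wild type 9 of the 48 hpf group. The noc2l transcript itself read 2.69, 3.75 and 6.99 CPM (lowest, median and highest; CPM are counts scaled to a common library total) in mutants at 48 hpf, against 5.71, 13.2 and 22.7 CPM in wild types. At 36 hpf its range was 2.69 to 10.6 CPM in mutants and 6.70 to 23.4 CPM in wild types, and at 24 hpf 2.08 to 16.2 CPM in mutants and 6.54 to 31.9 CPM in wild types. It fell by 1.93, 1.52 and 1.72 on the log2 scale at 24, 36 and 48 hpf, with edgeR adjusted p of 0.00108, 0.00242 and 0.000687, and the genotypes overlapped at each age. Summed markers of muscle, heart, blood, neurons, epidermis, yolk and liver, leukocytes and lens were above 0 in every library. Of the 10 members, 8 passed the filter on low counts. The other 2, atf5a and ddit3, were too sparse, with 22 and 135 counts over all 48 libraries.

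At 48 hpf all 5 tested factor genes rose in mutants, and none of the 3 target genes passed the test. The rises were largest for atf3 and were 0.56 to 0.93 on the log2 scale for atf4a, atf4b, cebpb and atf5b. At 36 hpf only the atf4 pair was called, and at 24 hpf no member was. No member was called lower at any age, where 0.0122%, 0.0913% and 0.712% of all tested genes were at 24, 36 and 48 hpf. A call means an adjusted p under 0.05 from edgeR's quasi-likelihood test over all 16431 tested genes. More cells carrying a transcript and more transcript per cell cannot be told apart in whole embryos.

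The counts can be set against all tested genes. At 48 hpf 5 of 8 tested members were called higher, while 2.2% of all tested genes were called in either direction and 1.49% higher. The members' median log2 difference was 0.64, that of the 5 factors 0.84 and that of the 3 targets 0.03, beside -0.02 over all tested genes. At 36 hpf 2 of 8 members were called higher, against a background of 0.706% called in either direction and 0.615% higher, and the members' median was 0.42 beside -0.01 for all genes. At 24 hpf edgeR called 0 of 8 members, where 0.122% of all genes were called and 0.11% were called higher. The members' median was then 0.22 beside 0.02 for all genes. At an unadjusted p under 0.05 edgeR, DESeq2 and limma voom each listed 2 members at 24 hpf, both higher. At that threshold edgeR listed 1309 of all 16431 tested genes, 790 of them higher. After adjustment DESeq2 and limma voom called no member.

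**Figure D1:**
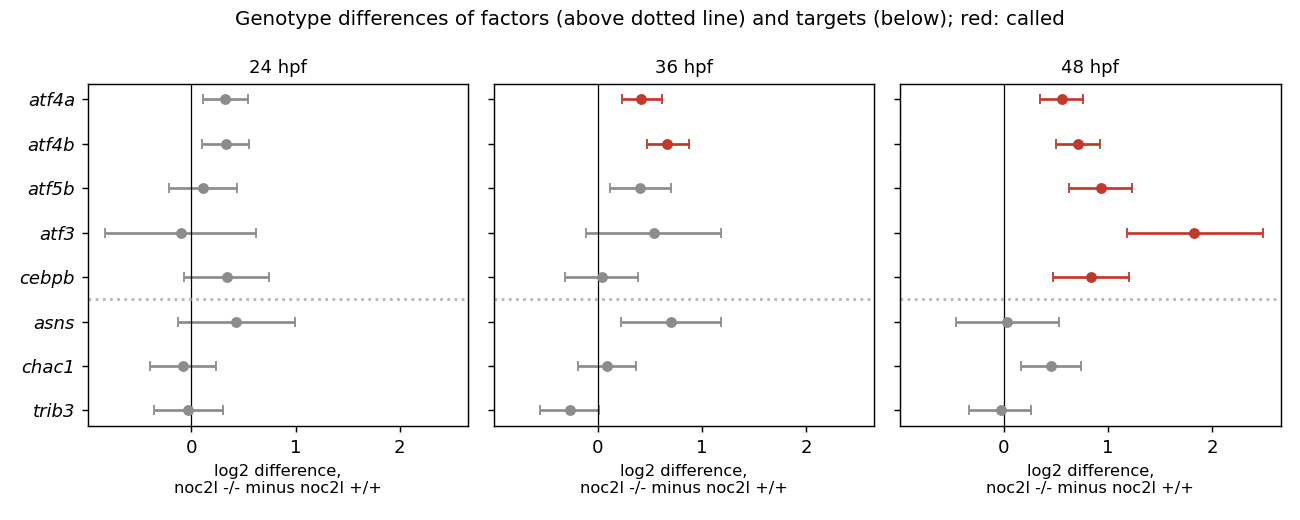
Log2 difference, noc2l -/- minus noc2l +/+, of each tested member at 24, 36 and 48 hpf on 1 shared axis; points are edgeR estimates, bars 95% confidence intervals, and red marks an adjusted p under 0.05. The 5 factors above the dotted line are red at 48 hpf, atf4a and atf4b also at 36 hpf, and asns, chac1 and trib3 below it are grey at every age.

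The pair atf4a and atf4b encode the zebrafish counterparts of mammalian ATF4, the central factor of the response. At 48 hpf atf4a read 239.7 CPM in the lowest mutant, 266 CPM in the median mutant and 306 CPM in the highest, against 163, 174 and 216 CPM in wild types. Every mutant at 48 hpf lay above every wild type. At 36 hpf the lowest, median and highest values were 203, 299.8 and 321 CPM in mutants, against 160.0, 212 and 251 CPM in wild types. There 8 of 9 mutants exceeded the highest wild type, and mutant embryo 5 lay among the wild types. At 24 hpf they were 204, 259 and 315 CPM in mutants, against 113, 223 and 237 CPM in wild types. The lowest of these was the shallow wild-type embryo 4, and 7 of 9 mutants lay above the highest wild type.

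The group means of atf4a were 259.9 ± 38.5, 280.1 ± 38.8 and 268 ± 21.4 CPM in mutants at 24, 36 and 48 hpf (SD, n = 9, 9 and 7). In wild types of the same ages they were 206 ± 46.9, 209 ± 25.7 and 182 ± 17.5 CPM (SD, n = 6, 8 and 9). The log2 difference at 48 hpf was 0.56 (SE 0.10, edgeR adjusted p = 0.000179). At 36 hpf it was 0.42 (SE 0.10, edgeR adjusted p = 0.0149), a call lost without wild-type embryo 2 of that age, when the difference was 0.38 and the edgeR adjusted p 0.0741. The difference of 0.32 at 24 hpf (SE 0.11) did not pass (edgeR adjusted p = 0.358). Leaving out 1 embryo of that age gave 0.21 to 0.38, with the largest edgeR adjusted p, 0.781, without the shallow wild-type embryo 4.

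For atf4b the 48 hpf embryos read 238, 270.2 and 319.7 CPM (lowest, median and highest) in mutants, against 140.3, 164 and 187 CPM in wild types. The genotypes were again fully apart at this age. Only atf4a and atf4b among the 8 tested members were, while 0.615% of all tested genes had every mutant above every wild type at 48 hpf. No member was apart at 24 or 36 hpf, where 0.0426% and 0.219% of all tested genes were. At 36 hpf atf4b read 156, 259 and 322 CPM in mutants, against 140.3, 153 and 179 CPM in wild types. Mutants were uneven at that age: embryo 1 lay within the wild-type range, the other 8 above it, and 3 of them exceeded 300 CPM. At 24 hpf the values were 160.3, 184 and 247 CPM in mutants and 134, 151 and 181 CPM in wild types, with 6 of 9 mutants above the highest wild type.

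Mean atf4b was 191 ± 26.6, 248 ± 62.1 and 271 ± 26.8 CPM in mutants over the 3 ages, and 152 ± 16.3, 156 ± 14.0 and 166 ± 16.7 CPM in wild types (SD, n as above). The log2 difference was 0.71 at 48 hpf (SE 0.10, edgeR adjusted p = 1.96e-06) and 0.67 at 36 hpf (SE 0.10, edgeR adjusted p = 8.24e-06). At 24 hpf it was 0.33 (SE 0.11, edgeR adjusted p = 0.376). Leaving out any 1 embryo kept both calls, with differences of 0.69 to 0.76 at 48 hpf and 0.62 to 0.74 at 36 hpf.

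The product of atf5b belongs to the ATF5 family, which in mammals is also translated under eIF2 phosphorylation and serves the mitochondrial stress response. Its 48 hpf values were 33.7, 42.95 and 59.8 CPM (lowest, median and highest) in mutants, against 17.4, 22.3 and 36.7 CPM in wild types. Of the 7 mutants, 6 lay above the highest wild type, which was the shallow embryo 9. At 36 hpf mutants read 23.9, 32.3 and 44.4 CPM and wild types 21.2, 23.04 and 32.2 CPM. All 9 mutants of that age exceeded the wild-type median, but the ranges overlapped. At 24 hpf the ranges of 23.6 to 44.3 CPM in mutants and 19.01 to 50.3 CPM in wild types were nested.

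The log2 difference of atf5b was 0.93 at 48 hpf (SE 0.15, edgeR adjusted p = 1.63e-05), with means of 44.8 ± 8.60 CPM in mutants and 23.8 ± 6.01 CPM in wild types (SD, n = 7 and 9). It was 0.41 at 36 hpf (SE 0.15, edgeR adjusted p = 0.306) and 0.11 at 24 hpf (edgeR adjusted p = 0.923), neither called.

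ATF3 is a stress-induced factor that damps and redirects transcription, known in fish and mammals from injured and regenerating tissue. At 48 hpf atf3 read 12.4, 35.1, 29.9, 16.8, 14.1, 11.3 and 8.21 CPM in mutant embryos 1 to 7. The 9 wild types of that age read 7.66, 5.86, 4.98, 2.31, 9.14, 2.53, 4.36, 4.14 and 4.71 CPM. Mutant embryos 2 and 3 stood well above the rest, the other mutants above most wild types, and only mutant embryo 7 lay within the wild-type range. The means were 18.3 ± 10.2 CPM in mutants and 5.08 ± 2.22 CPM in wild types (SD, n = 7 and 9).

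The fitted difference was 1.83 on the log2 scale (SE 0.33, edgeR adjusted p = 0.00014), or 3.56-fold. Without mutant embryo 2, the highest, it was 1.61 and still called (edgeR adjusted p = 0.00127). At 36 hpf atf3 read 1.50, 8.08 and 12.6 CPM (lowest, median and highest) in mutants, against 3.56, 5.03 and 8.05 CPM in wild types. Mutants of that age reached both lower and higher than wild types, and the difference of 0.54 (SE 0.32) was not called (edgeR adjusted p = 0.788). At 24 hpf the values were 1.49, 7.14 and 10.4 CPM in mutants and 0, 7.07 and 15.1 CPM in wild types. The 0 came from the shallow wild-type embryo 4, where 3 counts would be 3.27 CPM, and the difference was -0.10 (edgeR adjusted p = 0.972).

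C/EBP beta, the product of cebpb, is a partner of ATF4 that also works in inflammation and in macrophages. At 48 hpf cebpb read 19.2, 27.1 and 46.8 CPM (lowest, median and highest) in mutants, against 9.41, 16.8 and 23.3 CPM in wild types. Mutant embryos 4 and 6 were the highest, embryo 7 the lowest, and 6 of 7 mutants lay above the highest wild type. Means were 31.5 ± 10.3 CPM in mutants and 17.3 ± 4.43 CPM in wild types (SD, n = 7 and 9), and the log2 difference was 0.84 (SE 0.18, edgeR adjusted p = 0.00249).

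At 36 hpf cebpb ranged from 16.3 to 36.7 CPM in mutants and from 15.4 to 31.1 CPM in wild types, and the difference was 0.04 (edgeR adjusted p = 0.995). At 24 hpf the ranges were 19.2 to 52.1 CPM in mutants and 18.5 to 24.8 CPM in wild types. The 52.1 CPM of mutant embryo 1 stood apart from the next embryo at 29.97 CPM, and the difference of 0.34 was not called (edgeR adjusted p = 0.716). For 48 hpf the CPM of 5 leukocyte markers (mpeg1.1, marco, csf1ra, lyz and mpx) were summed. The sum was 96.0 to 195.7 in mutants and 87.5 to 174.6 in wild types. Over the 7 mutants cebpb had a rank correlation with this sum of -0.5 (exact permutation p = 0.267, adjusted p = 0.829). Beyond that correlation, the part of leukocytes in the cebpb result was not tested.

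The remaining factor genes were near the limit of detection. CHOP, the product of ddit3, drives cell death under prolonged stress in mammals. At 48 hpf ddit3 averaged 0.794 ± 0.653 CPM in mutants and 0.366 ± 0.510 CPM in wild types (SD, n = 7 and 9). In all 1 mutant and 4 wild types of that age had no count, and no library held more than 14. Kept in a fit without the filter, ddit3 differed by 1.07 at 48 hpf (SE 0.98, edgeR adjusted p = 0.734), so a change was not detectable at this depth. The second ATF5 gene, atf5a, had no count in 44 of 48 libraries and none in any embryo at 48 hpf.

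**Figure D2:**
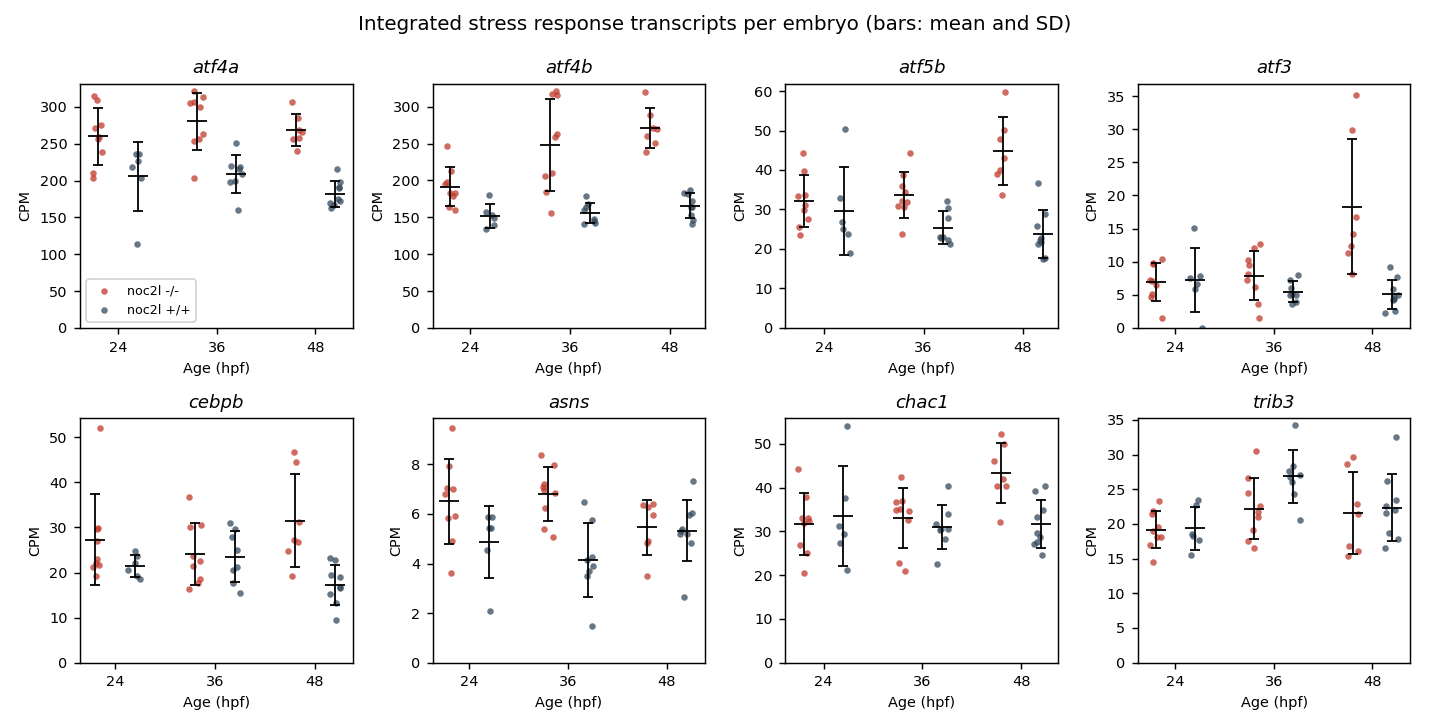
CPM of the 8 tested members in each embryo against age in hpf, with noc2l -/- embryos (red) to the left of noc2l +/+ embryos (dark blue) at each age; bars are mean and SD. At 48 hpf the 7 mutants lie above all 9 wild types for atf4a and atf4b, and 6 of 7 above the highest wild type for atf5b, atf3 and cebpb. For asns and trib3 the genotypes intermingle at that age. At 24 and at 36 hpf 6 of 9 mutants lie above the highest wild type for asns. For trib3 at 36 hpf 1 of 9 mutants lies above the wild-type median.

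None of the 3 target genes was called between genotypes. For chac1, whose enzyme breaks down glutathione and which is among the most responsive ATF4 targets in mammalian cells, 48 hpf mutants read 32.1, 41.9 and 52.3 CPM (lowest, median and highest). Wild types read 24.6, 29.7 and 40.3 CPM. Of the 7 mutants 5 lay above the highest wild type, with embryos 5 and 6, at 40.27 and 40.47 CPM, standing on either side of that wild type. The log2 difference was 0.45 (SE 0.15, 95% confidence interval 0.16 to 0.74) and missed the threshold (edgeR adjusted p = 0.097). It passed when only the 48 hpf libraries were fitted (edgeR adjusted p = 0.0212) and without wild-type embryo 3 or mutant embryo 7. At 36 and 24 hpf the differences were 0.09 and -0.08 (edgeR adjusted p = 0.979 and 0.951).

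Asparagine synthetase, encoded by asns, is a textbook ATF4 target. At 48 hpf asns read 3.49, 5.94 and 6.40 CPM (lowest, median and highest) in mutants, against 2.66, 5.31 and 7.32 CPM in wild types. The mutants lay within the wild-type range, and the difference was 0.03 with an interval of -0.46 to 0.53 (edgeR adjusted p = 0.985). At 36 hpf the values were 5.08, 6.96 and 8.37 CPM in mutants and 1.49, 4.01 and 6.49 CPM in wild types. There 6 of 9 mutants exceeded the highest wild type, yet the difference of 0.70 (SE 0.24, interval 0.22 to 1.18) was not called (edgeR adjusted p = 0.274). At 24 hpf it was 0.43 (edgeR adjusted p = 0.749). With a mean of 32.3 counts per library asns was the sparsest of the tested members.

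The pseudokinase encoded by trib3 binds ATF4 and restrains it in mammalian cells. At 48 hpf trib3 read 15.4, 21.5 and 29.6 CPM (lowest, median and highest) in mutants and 16.5, 22.1 and 32.5 CPM in wild types. The ranges nearly coincided, with a difference of -0.03 and an interval of -0.33 to 0.26 (edgeR adjusted p = 0.973). At 36 hpf the values were 16.5, 21.7 and 30.4 CPM in mutants and 20.6, 26.9 and 34.2 CPM in wild types. The difference of -0.27 (interval -0.55 to 0.01) did not pass (edgeR adjusted p = 0.687), nor did -0.03 at 24 hpf (edgeR adjusted p = 0.985).

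Over the 3 ages edgeR called 0 of 3 targets between genotypes. At an unadjusted p under 0.05 it listed 0 at 24 hpf, asns at 36 hpf and chac1 at 48 hpf, both higher in mutants. Of all 16431 tested genes it listed 1309, 1247 and 1856 at that threshold. There DESeq2 and limma voom each listed 2 targets at 36 hpf, only 1 of them higher, and 1 at 48 hpf, higher. After adjustment DESeq2 and limma voom called no target. The 95% intervals at 48 hpf leave room for rises of up to 0.74 in chac1, 0.53 in asns and 0.26 in trib3 on the log2 scale. Those of asns and trib3 also leave room for falls.

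The ages were then compared within each genotype. In mutants at 48 hpf compared with mutants at 24 hpf, atf3 rose by 1.38, atf4b by 0.51, atf5b by 0.48 and chac1 by 0.45 (edgeR adjusted p = 0.000545, 8.99e-05, 0.00967 and 0.0142). These were 4 of 8 members, and 27.7% of all tested genes were called between those ages in mutants, with 13.9% called higher. From 24 to 36 hpf mutants showed 1 call, atf4b at 0.38 (edgeR adjusted p = 0.00531), where 11.1% of all genes were called and 6.09% were called higher. From 36 to 48 hpf they showed 1 call, atf3 at 1.20 (edgeR adjusted p = 0.00606), where 10% of all genes were called and 4.75% were called higher. DESeq2 and limma voom added atf5b and chac1 there, at 0.43 and 0.37 for atf5b and 0.42 and 0.39 for chac1.

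In wild types edgeR called 0 of 8 members in any of the 3 age comparisons. Of all tested genes 8.47% were called from 24 to 36 hpf, 14.5% from 36 to 48 hpf and 27.5% from 24 to 48 hpf. At an unadjusted p under 0.05 each of these comparisons listed 1 member: trib3, higher at 36 hpf than at 24 hpf by 0.46; cebpb, lower at 48 hpf than at 36 hpf by 0.42; and atf5b, lower at 48 hpf than at 24 hpf by 0.34. Of all 16431 tested genes edgeR listed 3331, 4115 and 6050 at that threshold. There DESeq2 listed 1, 1 and 0 members and limma voom 1, 2 and 0. After adjustment DESeq2 and limma voom called no member. Without the 3 shallow libraries atf4a and atf5b were lower at 48 hpf than at 24 hpf in wild types, at -0.29 and -0.45 (edgeR adjusted p = 0.0269 and 0.0354).

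Whether the genotype difference itself changed with age was tested for each member. None of the 8 was called by edgeR in any of the 3 contrasts, in which 0%, 0.0548% and 0.0609% of all genes were called (36 against 24, 48 against 36 and 48 against 24 hpf). At an unadjusted p under 0.05 edgeR listed 1, 3 and 4 members, all with a larger difference at the later age. Of all 16431 tested genes it listed 943, 657 and 1184 at that threshold. There DESeq2 listed 1, 4 and 4 members and limma voom 0, 4 and 4. For 48 against 36 hpf 3 of the 4 had a larger difference at the later age, and 1, a target gene, had a smaller one. The widest change was that of atf3, whose difference was larger at 48 than at 24 hpf by 1.94 (SE 0.49, edgeR adjusted p = 0.0892). DESeq2 called it (adjusted p = 0.0308), as did edgeR without the 3 shallow libraries, where the value was 1.99 (adjusted p = 0.0456). For atf5b the change was 0.82 (SE 0.22, edgeR adjusted p = 0.151), and 1.00 without those libraries (edgeR adjusted p = 0.032).

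The group means fall in an order that differs between members. For atf4a the 3 mutant means came first, in the order 36, 48 and 24 hpf, then a gap of 51.2 CPM, beyond 1 SD, to the 3 wild-type means. Within each genotype neighbouring means lay within the larger of their SDs. For atf4b the mutants of 48, 36 and 24 hpf came first and the wild types of 48, 36 and 24 hpf after them, each within the larger SD of the next. For atf3 and atf5b the 48 hpf mutants stood first by 10.4 and 11.1 CPM, more than 1 SD, and the other 5 means each lay within the larger SD of the next. For cebpb and chac1 the 48 hpf mutants came first by 4.24 and 9.82 CPM, within the larger SD of the pair. For trib3 the 36 hpf wild types came first, at 26.9 ± 3.84 CPM (SD, n = 8).

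Other measures moved with genotype at 48 hpf and are given beside these results. The summed CPM of 4 muscle genes of heat shock and stretch (hspb9, hspb11, tcap and ankrd1a) was 71.6, 823, 1097, 612, 586, 489.5 and 59.0 in mutant embryos 1 to 7. In the 9 wild types it lay between 18.96 and 77.6, with a median of 28.3. Mutant embryos 2 to 6 thus stood far above all others. Embryos 1 and 7 lay below wild-type embryo 6, at 77.6, but above every other wild type, the next reading 37.65. All 4 genes were called higher at 48 hpf (log2 differences 3.09 to 4.36, edgeR adjusted p up to 3.01e-05). The 2 embryos highest in this sum were also the 2 highest in atf3. Correlations of the 5 called factors with this sum, the developmental age score and the leukocyte sum were computed over the 7 mutants, 15 in all, and none passed adjustment over the 15. The smallest p for rank correlation with the muscle sum were those of atf3 (exact permutation p = 0.00675, adjusted p = 0.101) and atf5b (exact permutation p = 0.0341, adjusted p = 0.256), both positive. Pearson's r with the muscle sum was 0.76 for atf3, 0.71 for atf5b, 0.52 for cebpb, -0.09 for atf4a and -0.06 for atf4b. Without the 2 embryos farthest from the median sum it was 0.90, 0.34, -0.52, 0.82 and 0.47 in the same order. All these values rest on few embryos, 5 high and 2 low in the sum.

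Embryos 1 and 7, the lowest mutants in the muscle sum, read 284 and 268 CPM of atf4a and 319.7 and 238 CPM of atf4b, above every wild type. Their atf5b was 40.05 and 33.7 CPM, their cebpb 26.8 and 19.2 CPM and their atf3 12.4 and 8.21 CPM. In each of atf5b, cebpb and atf3 embryo 7 lay within the wild-type range. Beyond those correlations among mutants, the part of these muscle genes in the results for the 5 factors was not tested. At 36 hpf the muscle sum was 29.4 to 81.4 in mutants and 17.8 to 31.6 in wild types, with none of the 4 genes called. At that age alas2, an enzyme of haem synthesis in red cells, fell in mutants by 0.82 on the log2 scale (edgeR adjusted p = 5.11e-05), and its part in the atf4a and atf4b results was not tested.

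A developmental age score, built from genes that change most in wild types, was 1.35 to 2.35 in mutants and 1.87 to 3.00 in wild types at 48 hpf. Mutants thus read as less advanced on average, with overlap. With the score as a covariate, and in each of the other 7 alternatives run, all 5 factors remained called at 48 hpf. Over those 8 settings the log2 difference ran from 0.55 to 0.60 for atf4a, from 0.71 to 0.83 for atf4b and from 0.81 to 1.03 for atf5b. It ran from 1.73 to 1.84 for atf3 and from 0.76 to 0.85 for cebpb, with a largest adjusted p of 0.0204 over all 5 genes. Among the 28 cell type markers, alas2 and apoa4a, an apolipoprotein of the yolk layer, also fell in mutants at 48 hpf, by 0.71 and 2.05 on the log2 scale (edgeR adjusted p = 0.000862 and 6.02e-06). Their part in the factor results was not tested.

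**Figure D3:**
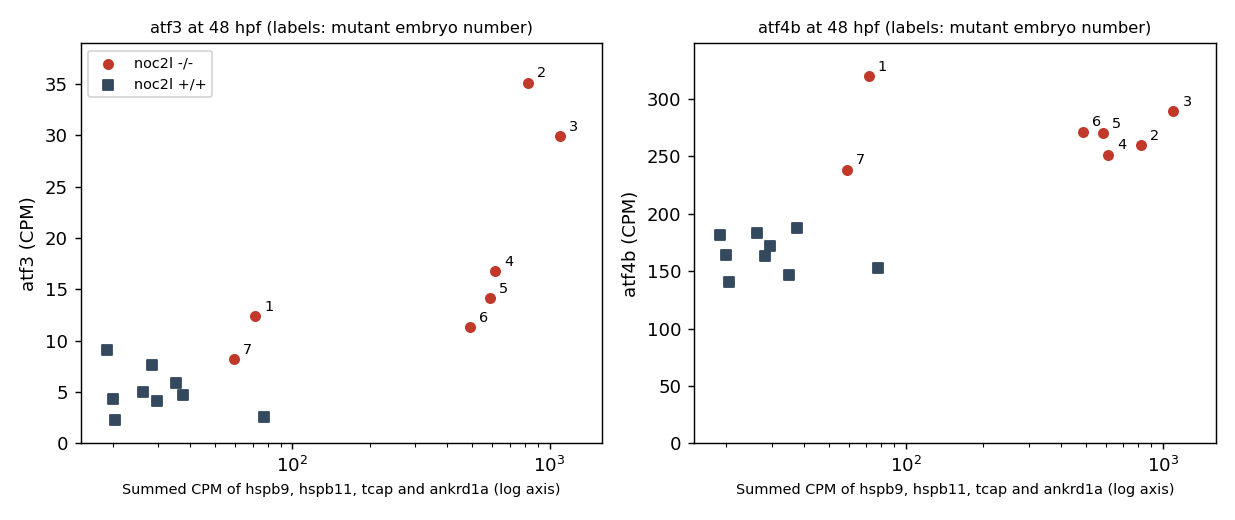
CPM of atf3 (left) and atf4b (right) in the 48 hpf embryos against the summed CPM of hspb9, hspb11, tcap and ankrd1a on a log axis; red circles are noc2l -/- embryos, numbered, and dark squares noc2l +/+ embryos. Mutant embryos 1 and 7 have sums of 71.6 and 59.0, beside 77.6 in the highest wild type, and their atf4b is 319.7 and 238 CPM; embryos 2 and 3 are highest in both the sum and atf3.

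Whether members varied together from embryo to embryo was examined after removing each group's mean, over all 48 embryos and 28 pairs. Of these, 23 had a positive Pearson r. After adjustment over the 28 pairs (permutation within groups) none passed by Pearson's r, and atf4a with atf4b and atf4b with chac1 passed by Spearman's rho. The 2 farthest embryos below are those farthest from the median in the first-named gene. Embryos far out in the second gene alone were not left out. The pair atf4b and atf5b had r = 0.40 (permutation p = 0.00245, adjusted p = 0.0686), rho = 0.33 (permutation p = 0.0255, adjusted p = 0.178) and r = 0.34 without the 2 farthest embryos. The pair atf4a and atf4b had r = 0.35 (permutation p = 0.0187, adjusted p = 0.182), rho = 0.45 (permutation p = 0.00268, adjusted p = 0.0375) and r = 0.43 without the 2 farthest. The pair atf4b and chac1 had r = 0.36 (permutation p = 0.0236, adjusted p = 0.182), rho = 0.45 (permutation p = 0.00263, adjusted p = 0.0375) and r = 0.43 without the 2 farthest. The largest r, 0.46 for atf3 and atf4a (permutation p = 0.0587, adjusted p = 0.329), had rho = 0.30 (permutation p = 0.0494, adjusted p = 0.231) and dropped to 0.13 without the 2 farthest embryos, so it rested on those. All values share library depth and the TMM scaling.

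The rest of the pathway was read from 10 lists covering the steps before and after the factors, 133 tested genes in all. At 48 hpf 11 of them were called higher and 6 lower, where 1.49% and 0.712% of all tested genes were. At 36 hpf 2 were called higher and 0 lower, where 0.615% and 0.0913% of all tested genes were. At 24 hpf there was 1 call, pdia6, a disulphide isomerase, at -0.68 (edgeR adjusted p = 0.0417), which was lost in 6 of 8 alternatives. There 0.0122% of all tested genes were called lower. The calls of each list below stand beside the shares of all tested genes given here. The list medians at 48 hpf stand beside -0.02 for all tested genes. Counts at an unadjusted p under 0.05 by edgeR stand beside 1856 of all 16431 tested genes at 48 hpf and 1247 at 36 hpf.

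Upstream of the factors, edgeR called 0 of 4 sensor kinase and activator genes at 48 hpf (median 0.23), with 0 at an unadjusted p under 0.05 and 0 called by DESeq2 or limma voom. Of 9 subunit genes of eIF2 and its exchange factor eIF2B, 1 rose (median 0.31): eif2b2, a regulatory subunit of eIF2B. It read 36.0, 50.9 and 62.5 CPM (lowest, median and highest) in mutants and 25.8, 30.3 and 38.04 CPM in wild types, overlapping only at the edge. The difference was 0.65 (SE 0.14, edgeR adjusted p = 0.00156) and was called in all 8 alternatives. Of the 9 genes edgeR listed 5 at an unadjusted p under 0.05, all higher, and DESeq2 also called eif2s2. Of 4 phosphatase subunit genes that undo the eIF2 mark edgeR called 0 (median -0.06), with 0 at an unadjusted p under 0.05 and 0 by the other tools. Among them ppp1r15a, the inducible subunit GADD34, read 0.50 with an interval of -0.91 to 1.92.

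Of 18 other ATF, C/EBP and partner factors 2 rose at 48 hpf (median 0.29). At an unadjusted p under 0.05 edgeR listed 6 of the 18, all higher, and the other tools called the same 2 genes. C/EBP delta, encoded by cebpd, is induced in acute inflammation. It read 43.9, 61.5 and 96.4 CPM (lowest, median and highest) in mutants and 30.5, 38.6 and 66.2 CPM in wild types. Only 2 mutants exceeded the highest wild type, but 8 of 9 wild types lay below the lowest mutant, and the difference was 0.67 (SE 0.17, edgeR adjusted p = 0.0122). The call was lost with the age score as a covariate (0.65, adjusted p = 0.0587) and without mutant embryo 5 (0.56, adjusted p = 0.065). The immediate early gene fosab, counterpart of FOS, read 8.21, 17.5 and 32.5 CPM in mutants and 2.06, 3.89 and 12.2 CPM in wild types. The ranges overlapped and it differed by 1.90 (SE 0.54, edgeR adjusted p = 0.0468). It lost its call in 3 of 8 alternatives, at 1.33 with the age score as a covariate, and without any of 11 single embryos.

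Downstream, edgeR called no gene of the amino acid lists at 48 hpf, and no list was tested as a set. Of 21 genes of amino acid synthesis and one-carbon metabolism edgeR called 0 at 48 hpf (median 0.02). It listed 3 at an unadjusted p under 0.05, all higher. DESeq2 and limma voom each called 1, cbsb, a cystathionine beta-synthase gene, named here after its value was seen. The edgeR differences of this list ran from -0.44 to 0.38, the highest being that of cbsb. Well-known ATF4 targets of mammalian cells, phgdh and psat1, each read -0.03 with intervals of -0.29 to 0.23 and -0.27 to 0.21. Of 13 amino acid transporter genes edgeR called 0 (median -0.01), as did the other tools. At an unadjusted p under 0.05 edgeR listed 2, both higher. The cystine transporter gene slc7a11 also read -0.03. Of 4 secreted factor genes edgeR called 0 (median 0.06), with 0 at an unadjusted p under 0.05 and 0 by the other tools.

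Cytosolic aminoacyl-tRNA synthetases and their tRNA exporter, which charge tRNAs for protein synthesis and include ATF4 targets in mammals, were the list with the most rises. Of 21 genes 6 rose at 48 hpf and none fell (median 0.39): farsa, iars1, mars1, kars1, eprs1 and lars1b. The first, farsa, read 54.0, 73.2 and 87.3 CPM (lowest, median and highest) in mutants and 30.7, 48.4 and 61.4 CPM in wild types, with overlapping ranges. The difference was 0.59 for farsa, 0.80 for iars1 and 0.83 for mars1 (SE 0.14, 0.19 and 0.21; edgeR adjusted p = 0.00495, 0.00869 and 0.0165). With the age score as a covariate the differences were 0.52 for farsa, 0.72 for iars1 and 0.78 for mars1, no longer called (adjusted p = 0.0683, 0.0725 and 0.0923). That of mars1 was also not called without mutant embryo 3 (0.68). At 48 hpf edgeR listed 12 of the 21 genes at an unadjusted p under 0.05, all higher, and limma voom also called sars1. At 36 hpf the list's median was 0.25 and edgeR called 0, with 9 at an unadjusted p under 0.05 and 0 called by the other tools.

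Among 17 growth brakes and survival regulators 2 rose at 36 hpf and 2 at 48 hpf (medians -0.07 and -0.01). At an unadjusted p under 0.05 edgeR listed 6 at 36 hpf, 4 of them higher, and 5 at 48 hpf, 3 of them higher. The growth arrest gene gadd45aa rose at both ages. At 36 hpf it read 7.52, 13.5 and 16.2 CPM (lowest, median and highest) in mutants and 0.683, 4.82 and 6.54 CPM in wild types. All 9 mutants lay above all 8 wild types, as in 0.219% of all tested genes at 36 hpf, and the difference was 1.40 (SE 0.26, edgeR adjusted p = 0.000419). At 48 hpf it was 1.14 (SE 0.25, edgeR adjusted p = 0.00302). The stress-induced chromatin protein gene nupr1a rose at 36 hpf by 0.84 (SE 0.16, edgeR adjusted p = 0.00208), a call lost when only the 36 hpf libraries were fitted (0.83, adjusted p = 0.0537). Its differences of 0.74 at 24 hpf and 0.45 at 48 hpf were not called (edgeR adjusted p = 0.101 and 0.212). DESeq2 called nupr1a at 24 hpf (adjusted p = 0.0195). The edgeR fit of the 48 hpf libraries alone called it at 48 hpf (adjusted p = 0.00994). At 48 hpf gadd45ba rose by 0.82 (SE 0.21, edgeR adjusted p = 0.0173), a call lost in limma voom (0.68, adjusted p = 0.0514), with the age score as a covariate (0.79, adjusted p = 0.0969) and without mutant embryo 1 or 3. GADD45 genes also answer to DNA damage and to other stresses.

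The other arms of the unfolded protein response were mostly chaperone and quality control genes of the endoplasmic reticulum, driven mainly by ATF6 and XBP1. This list, which also held regulators such as xbp1 and ern1, went the other way. Of 22 genes 6 fell at 48 hpf and none rose (median -0.36): calr3a, hspa5, hsp90b1, sdf2l1, pdia4 and manf. At an unadjusted p under 0.05 edgeR listed 9 of the 22, all lower, and limma voom also called calr lower. The chaperone BiP, encoded by hspa5, read 43.3, 57.6 and 90.3 CPM (lowest, median and highest) in mutants and 88.95, 113.8 and 145.1 CPM in wild types. The ranges met only at their ends, where the lowest wild type was the shallow embryo 9, and the difference was -0.79 (SE 0.15, edgeR adjusted p = 0.000228). The calcium-binding chaperone calr3a differed by -0.52 (SE 0.09, edgeR adjusted p = 0.000108). The HSP90 paralogue hsp90b1 differed by -0.84 (SE 0.19, edgeR adjusted p = 0.00451), a call lost with the age score as a covariate (-0.49, adjusted p = 0.186).

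**Figure D4:**
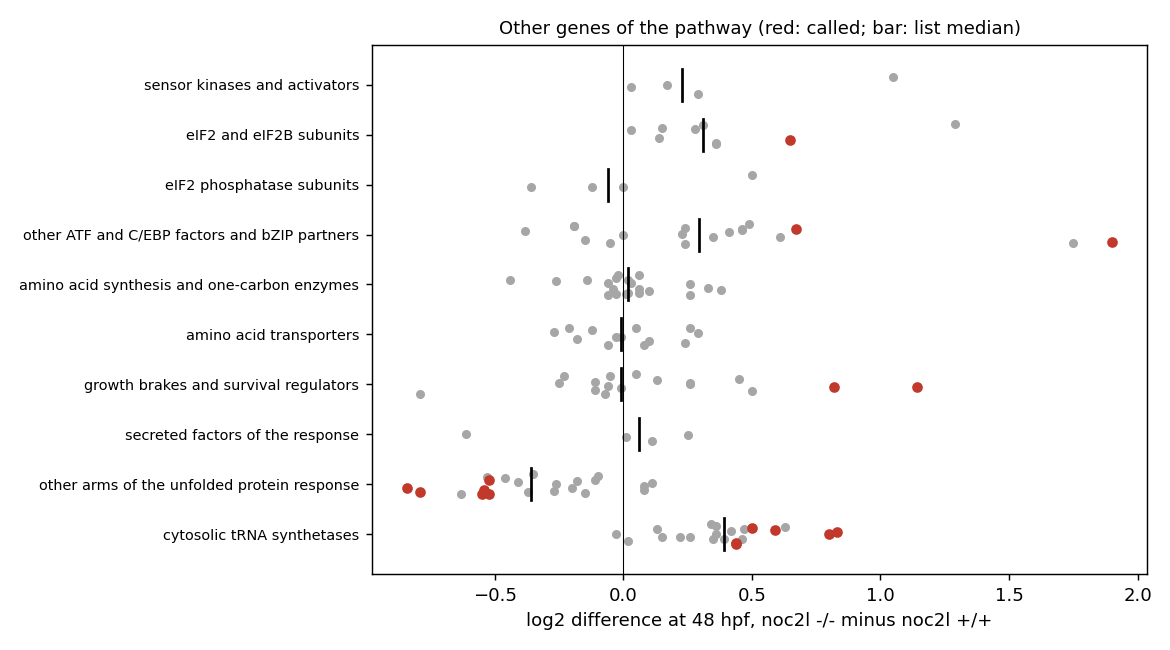
Log2 difference at 48 hpf, noc2l -/- minus noc2l +/+, of each tested gene of the 10 pathway lists; red points passed the edgeR test, grey points did not, and black bars are list medians. The tRNA synthetases have 6 red points to the right and a median of 0.39, the other arms of the unfolded protein response 6 to the left and a median of -0.36, and the amino acid lists none.

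For each called factor the genes with the most similar course over the 6 group means were found among 15433 candidates, by root mean square difference of centred log2 CPM. Nearest to atf4a lay rpp40, zgc:112185 and thada, at 0.054, 0.064 and 0.068, where the atf4a means span 0.61. Nearest to atf4b lay mrm3b, pik3r3a and fhit, at 0.058, 0.085 and 0.086 of a span of 0.83. Nearest to atf5b were pigl, znf106a and abcf1 (0.064, 0.068 and 0.084 of 0.92), and nearest to cebpb were pex3, tgfb3 and rnf44 (0.053, 0.053 and 0.066 of 0.84). Nearest to atf3 lay si:ch73-335l21.4, scamp5a and BX537263.5, at 0.183, 0.207 and 0.238 of a span of 1.74. How near the matches of other genes lie was not measured.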

How the data were processed

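The mRNA of 48 single embryos was sequenced from its 3' ends with Lasy-Seq, per the labels' protocols, so counts do not scale with transcript length. Salmon, BWA 0.7.17-r1188, fastp 0.21.0 and the build GRCz11 appear in the submitters' processing notes; the annotation, the order of the tools and strand handling are not given in the sources used here. Deposited as 1 table, the data hold the authors' expected counts per gene symbol, not normalised; 2 values were not whole, and all were rounded to whole numbers. Of 31658 entries 3197 held no count.

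Genes were kept by filterByExpr (minimum count 10), leaving 16431 with 99.8% of counts. Levels are CPM with TMM scaling. Tests were edgeR 4.0.16 quasi-likelihood F-tests in R 4.3.3, fitted to all 48 libraries with each group's own mean and with Benjamini-Hochberg adjustment at 0.05; they were tested on simulated data. SE is derived from the F statistic. The common biological coefficient of variation was 31.1%. Counts of same-group libraries always differed by more than sampling noise (chi-square divided by its degrees of freedom at least 5.45). Shallow libraries had a total under the median, 5.99 (1e6 counts), divided by 3. Correlations used 100000 permutations within groups (numpy 2.4.6).

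Alternatives were RLE size factors, DESeq2 1.42.0, limma 3.58.1 voom, no filter, libraries of 1 age only, no shallow libraries, a replicate block, the age score as covariate, and leaving out each embryo. The age score uses 200 genes with the steepest wild-type decrease between 24 and 48 hpf and 200 with the steepest increase. The mean log2 CPM of the former is subtracted from that of the latter. Members, list genes and genes placed on the chromosome of noc2l were left out and, for a wild type, the embryo scored. Genes without a known chromosome stayed in. Intervals cover 95%. The named genes were noc2l, all members, the 3 called list genes of smallest p per list, direction and age, the 3 nearest genes per called factor, and markers that moved; ppp1r15a, phgdh, psat1 and slc7a11 were named after their values were seen. The members, lists and tests were chosen with earlier results of these data known. The listed genes eif2ak4, atf6b, juna, slc7a1 and gdf15 are not analysed here.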

Additional observations from a re-analysis of the deposited data

Results flagged for a closer look

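Single embryos that stood apart from the rest of their group were sought for every member, by the gap to the nearest embryo relative to the group's range. Of 57 combinations of gene and group 8 exceeded the 95% critical value, and chance alone gives about 1 in 20 where values are normally distributed. That rate does not hold for the sparse atf5a and ddit3, where 1 embryo with a few counts readily stands apart from others near 0. Among mutants, cebpb in embryo 1 at 24 hpf read 52.1 CPM. The sparse atf5a read 1.46 CPM in mutant embryo 3 at 24 hpf and 0.881 CPM in mutant embryo 4 at 36 hpf, each from 6 counts with all other mutants of that age at 0. Among wild types at 24 hpf, atf4a read 113 CPM in embryo 4, a shallow library with 104 counts of that gene, and asns read 2.08 CPM in embryo 2 from 11 counts. In the same group ddit3 read 1.68 CPM in embryo 1 from 4 counts. Wild-type embryo 2 at 36 hpf held 2 of the 8, with 1.74 CPM of atf5a from 8 counts and 3.05 CPM of ddit3 from 14 counts. All 8 were embryos of 24 or 36 hpf. At 48 hpf no member was flagged, but the rule uses only the gap to the nearest embryo. So 2 embryos that stand out together are missed. At 48 hpf atf3 read 35.1 and 29.9 CPM in mutant embryos 2 and 3, beside 16.8 CPM in embryo 4.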

How the results depend on the processing

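The 5 factor calls at 48 hpf held in all 8 alternatives and without any single embryo; members called there numbered 5 to 6 when 1 embryo was left out. At 36 hpf 1 to 2 members stayed called on leaving out 1 embryo, and at 24 hpf 0. Over the whole table, leaving out 1 embryo gave 277 to 433 calls in the 48 hpf comparison, 82 to 125 in that of 36 hpf and 15 to 34 in that of 24 hpf (34 without wild-type embryo 1). At 24 hpf DESeq2 called 46 genes, limma voom 5 and the fit of that age alone 8, against 20. At 48 hpf the fit of that age alone called 634 genes against 362. For the change of the genotype difference from 24 to 48 hpf, DESeq2 called 1 member (atf3) and the fit without the 3 shallow libraries 2 (atf3 and atf5b), against 0. For wild types the fit without a filter called 1 member between 36 and 48 hpf, a sparse one that the filter removes, and that without shallow libraries 2 between 24 and 48 hpf, against 0 in each. For mutants between 36 and 48 hpf, RLE size factors, DESeq2 and limma voom each called 3 members and the fit without shallow libraries 2, against 1. The causes of these differences were not tested. Leaving out single embryos, fitting 1 age alone and the age score were applied to the genotype comparisons only. No result changed direction while called, and scaling moved the median of all genes by no more than 0.024 from 0.

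Replicate numbers name single embryos. Same-numbered mutants and wild types had correlations of their deviations of -0.05 to 0.07 over the 3 ages, none over 0.1, so the numbers did not pair embryos. With a replicate block 354 genes and 5 members were called at 48 hpf, 104 genes and 2 members at 36 hpf, and 16 genes and 0 members at 24 hpf.

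Depth limits ddit3, atf5a and asns most. Differences between genotypes concern 1 family and 1 allele, and the lesion is not known here. How the authors counted reads shared by near-identical paralogues or overlapping genes is not known here.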

Other observations

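The changes of 2 lists from 24 to 48 hpf are given for each genotype. Over all 16431 tested genes 2287 rose and 2265 fell in mutants (27.7% called), and 2297 rose and 2226 fell in wild types (27.5% called). Of 22 genes of the other arms of the unfolded protein response, 7 rose from 24 to 48 hpf in mutants and 1, xbp1, fell (median 0.17). In wild types 8 rose and 0 fell (median 0.40). For hspa5 that change was -0.09 in mutants (SE 0.14, edgeR adjusted p = 0.695) and 0.84 in wild types (SE 0.16, edgeR adjusted p = 2.27e-05). The difference between these 2 changes, -0.93 (SE 0.21), did not pass (edgeR adjusted p = 0.053). In the test of that difference edgeR called 0 of the 22 genes, with 4 at an unadjusted p under 0.05, DESeq2 called 2 (hspa5 and xbp1) and limma voom 0. Of 21 tRNA synthetase and exporter genes 3 rose and 0 fell from 24 to 48 hpf in mutants (median 0.14), where 13.9% of all tested genes were called higher, and 0 rose and 6 fell in wild types (median -0.17). For mars1 the change was -0.45 in mutants (edgeR adjusted p = 0.108) and -1.58 in wild types (edgeR adjusted p = 3.7e-08), and the difference of 1.13 (SE 0.31) did not pass (edgeR adjusted p = 0.15). In that test edgeR called 0 of the 21 genes, with 10 at an unadjusted p under 0.05, and DESeq2 and limma voom called 0. For this contrast edgeR listed 1184 of all 16431 tested genes at an unadjusted p under 0.05. The same mutants and wild types enter the genotype comparisons at these ages, so these values are not independent of them.

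The cebpd transcript was higher at 48 than at 24 hpf by 1.23 in mutants (SE 0.17, edgeR adjusted p = 2.34e-08). In wild types the change was 0.47 (SE 0.19, edgeR adjusted p = 0.0542), called by DESeq2 but not by edgeR or limma voom. Between these ages 2287 of all 16431 tested genes rose in mutants and 2297 in wild types. The difference between the genotypes' changes was 0.76 (SE 0.25) and not called (edgeR adjusted p = 0.376).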
